A study of Solanum lycopersicum with 12 samples.

Results

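Tomato primary root sections that held a lateral root primordium at its first periclinal division (stage 2, 2 libraries) were set against sections of the differentiation zone without any lateral root (control, 2 libraries). These 4 libraries were chosen by their labels from the 12 of the series, in which stages 1, 3, 4 and 5 have 2 libraries each. All plants were seedlings of the tomato cultivar M82 with the DR5::VENUSx3-NLS reporter, a nuclear fluorescent protein driven by a synthetic auxin-responsive promoter, and were germinated on agar with sucrose; control plants carry the reporter too. The stage was judged from the fluorescence under a stereoscope before dissection. The number of plants behind a library is not given in the labels, so p-values measure the spread between these samples, which may be technical. Each section is a piece of the whole root around the primordium, and in such bulk samples fewer cells of a type and less RNA per cell cannot be told apart.

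Lateral roots of flowering plants arise inside the primary root, from cells of the pericycle next to the vascular tissue. Auxin accumulates in the founder cells, which first divide across their length and then periclinally, parallel to the root surface, so that a layered primordium forms. Auxin response factors and LOB domain transcription factors are known for their part in these early divisions. Later the primordium pushes through the endodermis, cortex and epidermis.

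Messenger RNA was counted with a 3′ method, so that a count reflects transcript ends and is not divided by gene length. Levels are given as CPM, counts scaled to a common library total after TMM scaling, which adjusts libraries for differences in composition. The stage 2 libraries held 5624142 and 3549716 counts and the control libraries 4154467 and 2641164. A floor of 3 counts for detection was 0.531 and 0.817 CPM in the stage 2 libraries and 0.665 and 1.14 CPM in the control libraries. The deposited table gives locus tags without names, and 0 of its 34027 tags were matched in the RefSeq gene table used here. Defining markers of the root tissues could therefore not be checked, and genes are described by their levels, not their functions.

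The 4 libraries did not fall into 2 equally tight pairs. Over the 18357 tested genes, the Spearman correlation of log2(CPM + 1) was 0.97 between the stage 2 duplicates and 0.942 between the control duplicates. Control replicate 1 correlated at 0.949 and 0.946 with stage 2 replicates 1 and 2, above its correlation with its own duplicate. Control replicate 2 stood further off, at 0.897 and 0.898. Among 14804 genes with a mean of at least 20 counts, the duplicates differed by more than 2-fold for 3.03% of genes at stage 2 and for 10.3% in the control. Stage 2 replicates 1 and 2 differed by more than 2-fold from control replicate 1 for 9.29% and 9.77% of these genes, and from control replicate 2 for 21.3% and 20.7%. The spread within the control was thus at least as large as the distance of either stage 2 library from control replicate 1, and the counts of called genes and the calls of the named tags are given below with and without single libraries; the other descriptions rest on the fit to all 12.

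Far more genes were higher than lower in stage 2 sections. Of the genes tested, 963 were called higher at stage 2 (5.25% of all tested genes) and 136 lower (0.741%), together 5.99%, at an adjusted p-value under 0.05 in edgeR's quasi-likelihood test; without adjustment 3784 genes (20.6%) had p-values under 0.05. The libraries of the 2 groups did not overlap for any of the 963 higher genes, which had both stage 2 values above both control values, nor for 135 of the 136 lower genes. Non-overlap alone was common: 31.6% of all tested genes had both stage 2 libraries above both control libraries and 18.6% had both below. The share of higher calls among all calls was smaller in the settings given next. It was not smaller in every setting, and was larger in some of the fits with a single library left out, described below. Across the tested genes as a whole the log2 change had a median of 0.105, and with that median set to 0 there were 704 higher and 179 lower genes. Fitting only the 4 libraries compared, which changes the estimate of the spread as well as the scaling, gave 264 higher and 98 lower genes, so that the share of higher calls was 72.9% in place of 87.6%. It was 75.4% when at least 10 counts were required in every library, which also changes the genes tested.

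**Figure D1:**
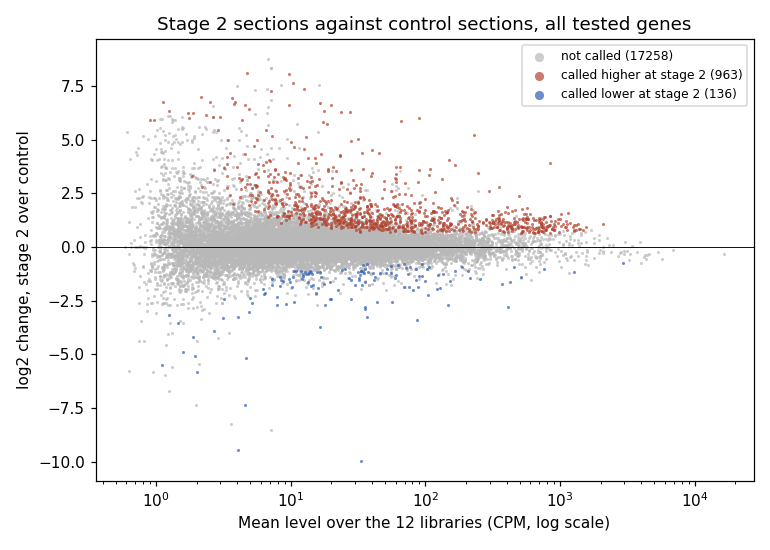
Each point is 1 of the 18357 tested genes, with its mean level over the 12 libraries in CPM on a log axis and its log2 change of stage 2 over control. Red points are the 963 genes called higher, blue points the 136 called lower and grey points the genes that were not called; the called rises reach down to smaller changes at high levels.

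Most changes were moderate. The median log2 change of the higher genes was 1.39, with quartiles of 1.06 and 2.04. By the fitted changes, 762 of them rose more than 2-fold and 253 more than 4-fold. More than 8-fold was fitted for 128 and more than 16-fold for 59. These counts include 88 genes at or under 3 counts in both control libraries. For those only lower bounds can be given, as described below. The median level of the 963 higher genes was 34.5 CPM at stage 2 and 12.5 CPM in the control. Their levels at stage 2 ran from 1.16 to 1330 CPM, and 8 genes exceeded 1000 CPM at stage 2 while 0 did so in the control. The lower genes had a median log2 change of −1.53, with quartiles of −2.36 and −1.18, and 124 of them fell more than 2-fold. Their median level was 16 CPM at stage 2 and 54.9 CPM in the control.

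The called genes took up different parts of the libraries. Counts of the 963 higher genes made up 11.9% and 12.2% of the stage 2 libraries and 6.25% and 5.03% of the control libraries. Counts of the 136 lower genes made up 1.11% and 1.06% of the stage 2 libraries and 2.3% and 2.94% of the control libraries. These shares describe genes that were chosen by the same comparison and carry no test.

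Some of the higher genes were not detected above the floor without a primordium. Both control libraries were at or under 3 counts for 88 of the 963 genes (9.14%), and 27 of these had 0 counts in both. The same was true of 4.33% of all tested genes. These shares are not like for like, since higher genes were chosen in part for low control values. Genes at the control floor also passed the filter only through their counts in other groups. For such genes only a lower bound of the fold can be given, as the mean stage 2 level over the mean floor of the control libraries, 0.902 CPM. The bound was at least 4-fold for 53 of the 88 genes, with a median of 4.74 and a range from 1.29 to 28.7. Their median level at stage 2 was 4.28 CPM and the highest was 25.9 CPM, so these 88 genes stayed at modest levels there. With these genes at their bounds the median log2 change of the 963 was 1.36. In the opposite direction, 12 of the 136 lower genes were at or under 3 counts in both stage 2 libraries.

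The share of genes called rose with level, while the standard error of the log2 change fell. The part of precision in the higher share was not tested. Levels here include the later stages, so genes that rise there are moved to higher classes. When genes were ranked by their mean over the 12 libraries and cut into 4 classes, the lowest class ran from 0.591 to 5.73 CPM. There 1.37% were called higher and 0.37% lower, and the median standard error of a log2 change was 0.679. In the highest class (39 CPM and above), 11% were called higher and 1.09% lower, with a median standard error of 0.222. With genes at the control floor included, the median log2 change of called rises was 3.42 in the lowest class and 1.14 in the highest.

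These counts changed when single libraries were left out. Such fits also have fewer libraries to test with, and this was not separated from what the omitted library holds. Without control replicate 2, 353 genes were called higher and 18 lower, and without control replicate 1 there were 1419 and 495. Without stage 2 replicate 1 there were 427 and 38, and without stage 2 replicate 2 there were 352 and 17. In each of these fits the group left with 1 library was assumed to vary like the others. Of the 963 higher genes, 237 (24.6%) were called in the fit to all libraries and in all 4 of these fits, as were 6 of the 136 lower genes (4.41%). The 237 genes had a median log2 change of 1.74 and a median level of 53.4 CPM at stage 2 and 14.8 CPM in the control. The 6 lower genes had a median log2 change of −2.57, at 12.9 CPM at stage 2 and 83.4 CPM in the control. None of the 963 or 136 genes was called in the opposite direction in any of the other settings run for stage 2 against control.

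**Figure D2:**
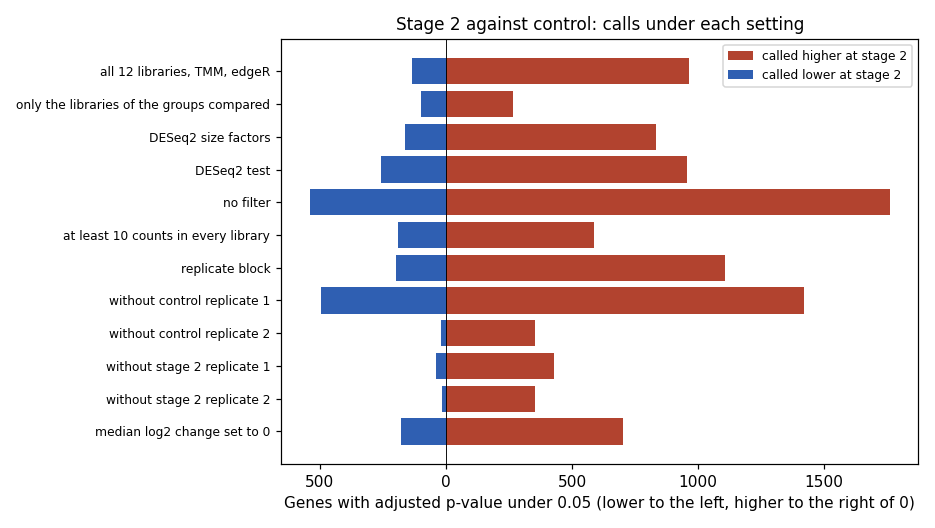
Bars give the number of genes called higher (red, to the right of 0) and lower (blue, to the left) for stage 2 against control, in the fit to all 12 libraries (top) and under each other setting. Higher calls outnumbered lower calls in all 12 fits; their share was lowest, at 72.9%, with only the 4 libraries compared and highest, at 95.4%, without stage 2 replicate 2.

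To place the stage 2 genes in the series, their levels were followed through all groups. The comparisons of the stages with the control use the same 2 control libraries, so their values are given side by side and not as separate evidence. The 963 higher genes had median log2 changes against control of 1.4, 1.39, 1.96, 2.27 and 2.32, in order from stage 1 to stage 5. Their median level was 12.5 CPM in the control and then 35.5, 34.5, 46.4, 55.2 and 57.5 CPM from stage 1 to stage 5. For the 136 lower genes the median changes were −2.12, −1.53, −1.07, −1.23 and −1.53 at stages 1 to 5. Over all tested genes these medians were 0.14, 0.1, 0.02, −0.01 and 0.02.

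**Figure D3:**
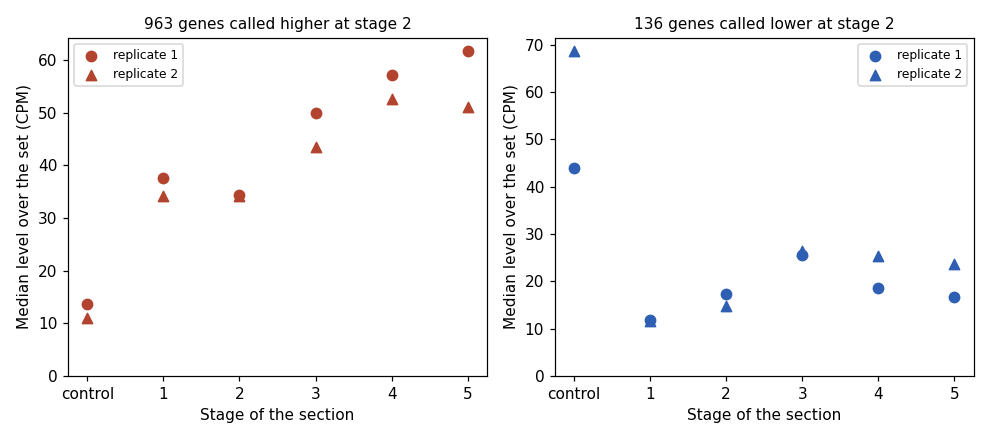
Median level in CPM over the 963 genes called higher (left, red) and the 136 called lower (right, blue) at stage 2, in each of the 12 libraries by stage; circles are replicate 1 and triangles replicate 2. The higher genes lie at 34.3 and 34.1 CPM in the stage 2 libraries and at 13.7 and 11 CPM in the control libraries; the lower genes lie at 17.4 and 14.8 CPM at stage 2 and at 43.9 and 68.6 CPM in the control.

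Most stage 2 genes had their extreme group mean at another stage. Of the 963 higher genes, 46 (4.78%) had their highest group mean at stage 2, while 444 (46.1%) had it at stage 5, and stages 4, 1 and 3 were highest for 272, 134 and 67 genes. Among all tested genes, 9.54% had their highest mean at stage 2. Of the 136 lower genes, 18 (13.2%) had their lowest mean at stage 2, 77 (56.6%) had it at stage 1 and 33 had it at stage 5; among all tested genes, 8.87% had their lowest mean at stage 2. The control was the lowest group for 0 of the 136 lower genes, which follows from their selection, but for 30.2% of all tested genes. The shares over all tested genes are therefore not like for like. These are positions of means of 2 libraries, with no test behind the order.

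The neighbouring stages were then compared with stage 2 directly. Against stage 1, a section whose primordium is a pair of reporter-positive cells, 22 genes were higher at stage 2 (0.12% of all tested genes) and 29 lower (0.158%). The 963 and 136 genes were chosen with the same stage 2 libraries that enter the contrasts with stages 1 and 3. Their counts in both contrasts are shaped by that choice and carry no test. Of the 963 genes higher than control, 6 were also called higher at stage 2 than at stage 1 and 5 lower. Of the 136 lower genes, 5 were higher than at stage 1 and 0 lower. The counts were lower with any of the 4 libraries left out: without stage 1 replicate 1 there were 1 higher and 6 lower genes in all, without stage 1 replicate 2 there were 1 and 17, without stage 2 replicate 2 there were 3 and 4, and without stage 2 replicate 1 there were 17 and 7. At stage 3, when the primordium passes the endodermis, 472 genes were higher than at stage 2 (2.57%) and 215 lower (1.17%). Of the 963 genes, 266 (27.6%) were higher at stage 3 than at stage 2 and 75 (7.79%) lower. The calls of this contrast were also fewer with any of its 4 libraries left out, with 0 without stage 2 replicate 1 (2255 genes at an unadjusted p-value under 0.05), 23 higher and 26 lower without stage 2 replicate 2, 16 and 3 without stage 3 replicate 1, and 50 and 7 without stage 3 replicate 2. Stage 2 was then tested against the midpoint of stages 1 and 3 on the log2 scale. A gene can depart from this midpoint while stage 2 lies between the 2 stages. The test therefore does not mark genes as particular to stage 2. No gene passed edgeR's test at an adjusted p-value under 0.05 (0% of 18357), while 1076 (5.86%) had an unadjusted p-value under 0.05 and DESeq2 called 10.

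The contrast of stage 3 with stage 1 compares other libraries than stage 2 against control and was used to divide the stage 2 genes. Both contrasts come from 1 fit, in which the spread of a gene was estimated over all 12 libraries. Genes at high levels were also called more often. The shares of all tested genes given here were not matched for level or spread. Over all tested genes, 6.49% were called higher at stage 3 than at stage 1 and 6.38% lower. Among the 963 genes higher at stage 2 than in the control, 440 (45.7%) were called higher at stage 3 than at stage 1 and 105 (10.9%) lower, with a median log2 change of 0.75. Among the 136 lower genes, 51 (37.5%) were called higher at stage 3 than at stage 1 and 1 lower, with a median of 1. The median level of the 51 genes was 69.8 CPM in the control and 11.1, 16.8, 34, 34.9 and 29.6 CPM from stage 1 to stage 5, so that the median stayed under that of the control in every stage.

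The 963 higher genes followed different courses outside the stages that divided them. The 440 genes had a median of 25.2 CPM in the control and 58.9 CPM at stage 2, and stood at 154 CPM at stage 4 and 185 CPM at stage 5. The 105 genes had a median of 11.1 CPM in the control and 37.8 CPM at stage 2, and stood at 6.54 CPM at stage 4 and 4.62 CPM at stage 5, below the control. The remaining 418 genes had a median of 8.21 CPM in the control and 22.8 CPM at stage 2, with 37.9 and 37.1 CPM in the last pair of stages. The log2 changes of stage 2 over control had medians of 1.23, 1.87 and 1.44 in these sets. In the same fit, stage 5 against stage 1, also between other libraries, called 611 of the 963 genes higher (63.4%) and 145 lower (15.1%). Of all tested genes, not matched for level or spread, 21.2% and 23.2% were called.

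**Figure D4:**
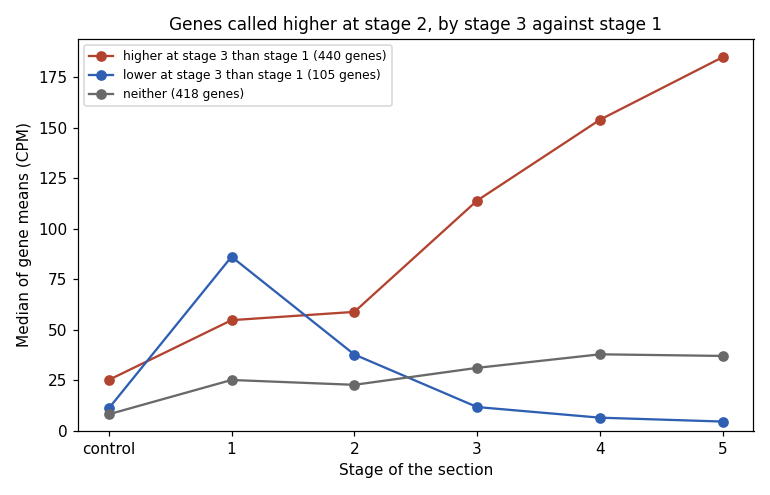
Median over genes of the group mean in CPM, from the control to stage 5, for the 963 genes called higher at stage 2, divided by the contrast of stage 3 with stage 1 into 440 higher (red), 105 lower (blue) and 418 that were neither (grey). All 3 lines lie above their control value at stage 2, and they part at stages 4 and 5, at 185, 4.62 and 37.1 CPM at stage 5; the values at stages 1 and 3 follow from the division.

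The 2 most strongly supported rises were those of Solyc02g078100 and Solyc04g072037. Solyc02g078100 had 391 and 273 counts in the stage 2 libraries, or 69.2 and 74.4 CPM, against 11 and 3 counts in the control libraries, or 2.44 and 1.14 CPM. Both stage 2 libraries lay far above both controls, and the second control library was at the floor. The log2 change was 5.2 ± 0.298 (SE; adjusted p-value 1.19e-05, edgeR). Its level differed from both neighbouring stages, by 1.61 ± 0.214 over stage 1 (adjusted p-value 0.0126, edgeR) and by 2.14 ± 0.21 for stage 3 over stage 2 (adjusted p-value 0.00197, edgeR). In the libraries it read 27 and 19.9 CPM at stage 1 and 331 and 302 CPM at stage 3, so that stage 2 lay between stages whose values did not overlap with it.

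Solyc04g072037 had 144 and 102 counts at stage 2, or 25.5 and 27.8 CPM, against 6 and 3 counts in the control, or 1.33 and 1.14 CPM. The log2 change was 4.37 ± 0.368 (SE; adjusted p-value 0.000288, edgeR). Its values at stage 1, 21.8 and 16.6 CPM, lay below both stage 2 values, but the difference of 0.47 ± 0.245 did not pass the test (adjusted p-value 0.829, edgeR). At stage 3 it read 58.5 and 41.1 CPM, and the difference of 0.9 ± 0.239 from stage 2 did not pass either (adjusted p-value 0.0586, edgeR). One of its 12 values was not a whole number, 258.999 at stage 4, and all 4 values of the stage 2 and control libraries were whole.

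The 2 most strongly supported falls were those of Solyc09g007980 and Solyc03g119180. Solyc09g007980 had 80 and 45 counts at stage 2, or 14.1 and 12.3 CPM, against 372 and 299 counts in the control, or 82.5 and 113 CPM. The groups were well apart, with a log2 difference of −2.88 ± 0.305 (SE; adjusted p-value in edgeR 0.000737). The lowest levels of this gene were at stage 1, at 2.7 and 1.84 CPM, and stage 2 was higher than stage 1 by 2.53 ± 0.374 (adjusted p-value 0.0161, edgeR). It read 28.5 and 29.3 CPM at stage 3 and 34.3 and 48.7 CPM at stage 4, still under both control libraries.

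Solyc03g119180 had 297 and 149 counts at stage 2, or 52.5 and 40.6 CPM, against 666 and 499 counts in the control, or 148 and 189 CPM. Its log2 change was −1.85 ± 0.263 (SE; adjusted p-value 0.00291, edgeR). Stage 1, at 35.9 and 33.5 CPM, was below stage 2, but by 0.43 ± 0.261 on the log2 scale, which did not pass the test (adjusted p-value 0.923, edgeR). No library of any stage reached the level of the lower control library. All 4 of these genes were called in the same direction under each alternative in which they were tested, with adjusted p-values of at most 0.0359 (edgeR or DESeq2).

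The adjacent tags Solyc09g066260 and Solyc09g066270 were followed because published work on this series names them, so their rise here is not separate support. That work describes them as BROTHER OF SHOOTBORNE ROOTLESS and SHOOTBORNE ROOTLESS, LOB domain transcription factors. These names are not in the deposited table. Solyc09g066260 had 75 and 30 counts at stage 2, or 13.3 and 8.17 CPM, against 2 and 0 counts in the control. At stage 2 the mean was therefore at least 11.9-fold higher, taken against the floor averaged over both controls. The test was of the fitted log2 change, 5.16 ± 0.95 (SE; adjusted p-value 0.00844, edgeR), and not of this bound. Solyc09g066270 had 48 and 42 counts at stage 2, or 8.49 and 11.4 CPM, against 1 and 1 counts in the control. By the same kind of bound its mean was at least 11.1-fold higher. Its fitted log2 change was 5.01 ± 0.956 (SE; adjusted p-value 0.0103, edgeR).

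Both tags were thus under the detection floor without a primordium and clearly above it in both stage 2 libraries. Neither passed the test between stage 2 and stage 1. For Solyc09g066260 the log2 difference was 0.25 ± 0.542 (adjusted p-value 1, edgeR) and for Solyc09g066270 it was 0.73 ± 0.576 (adjusted p-value 1, edgeR). The differences of stage 3 from stage 2 were 0.4 ± 0.535 and −0.28 ± 0.57 (adjusted p-values 0.756 and 0.846, edgeR). Of the 6 group means, that of Solyc09g066270 was highest at stage 2, at 9.97 ± 2.09 CPM (SD, n = 2). It was 8.15 ± 0.63 CPM at stage 3 and 7.36 ± 1.71 CPM at stage 4. The libraries overlapped, with 8.6 CPM in 1 stage 3 library and 8.56 CPM in 1 stage 4 library, above the lower stage 2 value of 8.49 CPM. The call of Solyc09g066260 was lost without control replicate 2 (adjusted p-value 0.0666, edgeR). That of Solyc09g066270 was lost without control replicate 1 (0.054), without control replicate 2 (0.0655) and without stage 2 replicate 2 (0.0531).

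**Figure D5:**
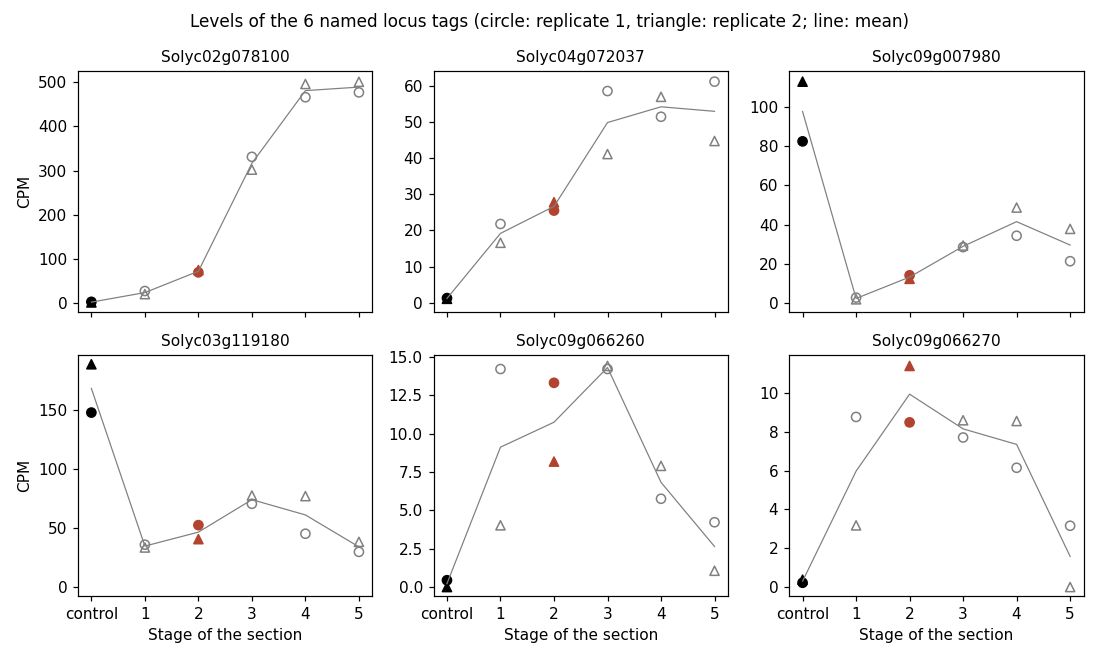
Level in CPM of the 6 named locus tags in each of the 12 libraries, from the control to stage 5, with circles for replicate 1, triangles for replicate 2 and a line through the means; stage 2 is red and the control black. Solyc02g078100 reads 69.2 and 74.4 CPM at stage 2 on the way to 477 and 501 CPM at stage 5, while Solyc09g066270 reads 8.49 and 11.4 CPM at stage 2 and 3.16 and 0 CPM at stage 5.

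Where the called genes lie was read from the chromosome number inside each locus tag. The share of tested genes called higher was between 4.45% (chromosome 5) and 6.49% (chromosome 6) on the 12 numbered chromosomes, near the 5.25% of all tested genes. Among 175 tested genes with chromosome number 0, 0 were called higher and 6 lower (3.43%, where 0.741% of all tested genes were lower). Some of these tags had identical values, such as Solyc00g500046 and Solyc00g500128, both at 21.2 CPM with a log2 change of −0.327. The 175 may therefore not all be separate measurements, and the share rests on few calls. Of the 660 higher genes whose next tag in the table was also tested, 57 (8.64%) had a next tag that was called higher as well. Among genes with whole counts in all libraries, this share was 5.87% of 426 genes, where 4.44% of all tested genes with whole counts were called higher. Of the 84 lower genes with a tested next tag, 5 (5.95%) had a next tag that was called lower, where 0.741% of all tested genes were; among genes with whole counts it was 1 of 55 (1.82%, where 0.66% were called lower). The higher genes, those with fractional counts included, formed 54 runs of adjacent tags, the longest of 3 genes. How many runs the share of all tested genes would give was not computed.

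Fractional counts, which arise where a read is divided among similar genes, occurred in 1 or more libraries for 284 of the 963 higher genes (29.5%), for 35 of the 136 lower genes (25.7%) and for 16.7% of all tested genes. Levels of these genes are uncertain where their reads were divided, and the part of such reads in the calls was not tested.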

How the data were processed

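The deposited table holds estimated counts per Solyc locus tag, made by the authors; 5.64% of values were not whole (tolerance 1e-09), 0 columns were left unused, and column totals differ, so values were taken as unnormalised. The submitters' processing notes name Salmon 1.3.0 and DESeq2 without a role. The genome build, annotation and use of strand are not given in the sources used here, and neither are molecular identifiers; floors cover counting error only. Per the labels' protocols, a 3′ QuantSeq kit was used.

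Estimated counts were rounded. Genes were kept with filterByExpr by group (18357 genes), scaled by TMM and tested with edgeR 4.0.16 (limma 3.58.1, R 4.3.3), in 1 quasi-likelihood model of the 6 groups over 12 libraries with 6 residual degrees of freedom; the biological coefficient of variation was 0.218. p-values were adjusted by Benjamini-Hochberg over all tested genes and called under 0.05. A standard error is the log2 change over the square root of F. Alternatives were DESeq2 1.42.0, its size factors, other filters, the 4 libraries alone, a replicate block and leaving out each library. Duplicates differed beyond sampling noise, with a chi-square per degree of freedom of 6.8 at stage 2 and 12.4 in the control.

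The comparison, lists, the named tags and tests were chosen with earlier results of these data known. Named are the 2 tags per direction with the smallest adjusted p-value, and a fixed pair of adjacent tags. The planned gene lists could not be applied, since 0 tags matched a name. The contrasts of stages 3 and 5 with stage 1, and the scaling with the median change set to 0, were added after the data were seen.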

Additional observations from a re-analysis of the deposited data

Results flagged for a closer look

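The effect against the control differed between neighbouring stages for some genes, by the direct test of the difference. Stage 2 against stage 1 called 51 genes and stage 3 against stage 2 called 687 (edgeR, adjusted p-value under 0.05). Of the named tags, Solyc02g078100 was higher at stage 2 than at stage 1, by a log2 change of 1.61, and higher at stage 3 than at stage 2, by 2.14. Solyc09g007980 was higher at stage 2 than at stage 1 by a log2 change of 2.53, while lower than the control at both.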

How the results depend on the processing

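For stage 2 against control, only the 4 libraries compared gave 264 higher genes, no filter gave 1759 higher and 539 lower, 10 counts in every library gave 587 higher, and the DESeq2 test gave 256 lower. Leaving out 1 library gave 352 to 1419 higher and 17 to 495 lower genes. For stage 2 against stage 1, higher and lower counts were 43 and 111 with only the libraries compared, 72 and 81 with DESeq2, 231 and 296 without a filter, 9 and 3 with 10 counts in every library, and 1 to 17 and 4 to 17 with 1 library left out. With only the libraries compared, stage 3 against stage 2 gave 1024 higher and 805 lower, no filter gave 977 and 781, DESeq2 gave 381 lower, 10 counts in every library gave 127 lower, and leaving out 1 library gave 0 to 50 and 0 to 26. Stage 2 against the mean of stages 1 and 3 gave 2 higher genes with only the libraries compared, 3 higher and 7 lower with DESeq2, 151 and 46 without a filter, and 0 to 3 higher and 0 lower with 1 library left out. The cause of these shifts was not tested.

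A model with a replicate block gave 1106 higher and 196 lower genes for stage 2 against control, and 72 lower genes for stage 2 against stage 1. Replicate differences of stage 2 and control correlated at 0.0508, and the mean over the 15 pairs of groups was 0.0458 (range −0.0831 to 0.212); the numbers were not treated as pairs. Precision was lowest for genes under 5.73 CPM, where the median standard error was 0.679; the part of depth in this was not tested. No promoter or protein sequence was used here, so the intended motif count was not run, and other settings for gene lists were not run because no tag matched a name.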
